A study of Mus musculus with 18 samples.

Results

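Genes of serine synthesis and one-carbon metabolism, 10 in all and given by the symbols Mthfd2, Mthfd1, Mthfd1l, Shmt2, Shmt1, Phgdh, Psat1, Psph, Asns and Atf4, were followed through microglia and other retinal cells of rd1 mice. All 10 were found among the 54532 genes of the count table. Mthfd2 was included because it was higher with TGFB1 in microglia, so its values in that comparison are a description, and the same holds there for the other 9 genes.

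The microglia-TGFB1 group held 7 libraries and the microglia-GFP group 7. The non-microglia-TGFB1 group held 2 libraries and the non-microglia-GFP group 2. All 18 came from retinas of rd1 mice on the FVB background at postnatal day 30, whose mutant Pde6b causes rods, and later cones, to die. TGFB1 retinas had received AAV8-GFP together with AAV8-TGFB1 under the retina, GFP retinas AAV8-GFP alone, so both carried the green fluorescent protein virus and no uninjected retina was analysed here. TGFB1 encodes transforming growth factor beta 1, a cytokine that supports the resting identity of microglia. The labels name no promoter for the viruses and do not say whether libraries came from separate animals, so the spread between libraries may be partly technical.

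Serine is made in the cell from a glycolytic intermediate by the enzymes PHGDH, PSAT1 and PSPH. The SHMT enzymes then split serine into glycine and a one-carbon unit carried on folate, SHMT2 in mitochondria and SHMT1 in the cytosol. In mitochondria MTHFD2 oxidises that unit and MTHFD1L releases it as formate, which the cytosolic enzyme MTHFD1 takes up for the synthesis of purines, thymidylate and methionine. ATF4 is a transcription factor of the integrated stress response that is known to drive many of these genes, and Asns, which encodes asparagine synthetase, is among its standard target genes.

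The sort separated the fractions: 14 microglia marker genes summed to 45776 to 54569 CPM (counts per 1000000, on TMM-scaled library sizes) in TGFB1 microglia and 45406 to 54617 in GFP microglia, against 57.6 to 61.4 in TGFB1 non-microglia and 63.7 to 69.0 in GFP non-microglia. Total counts ran between 1582451 and 3064027 per library. Mouse Tgfb1 had 462 and 402 counts in TGFB1 non-microglia and 0 counts in both GFP non-microglia libraries, below a floor of 3 counts per library, and 17 to 59 counts in TGFB1 microglia against 18 to 40 in GFP microglia. Non-microglia were a mixture: 11 Mueller glia markers (the list without Apoe, which microglia express) summed to 15423 and 15916 CPM in TGFB1 and 17198 and 17628 CPM in GFP non-microglia. In bulk samples such as these, fewer cells of a type and less RNA per cell cannot be told apart.

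In microglia, Mthfd2 was the member that stood apart between the treatments. It ranged over 46.2 to 65.7 CPM in TGFB1 microglia, with a median of 49.6, and over 26.6 to 41.9 CPM in GFP microglia, with a median of 31.6. Each of the 7 TGFB1 libraries lay above the highest GFP library, so the groups did not overlap. The means were 52.8 ± 7.10 CPM with TGFB1 and 33.7 ± 6.03 CPM with GFP (SD, n = 7 each), a log2 fold change of 0.65 with a standard error of 0.12, or 1.57-fold. These means rest on 50 to 158 reads per library. Of 10970 genes tested in microglia, 34 (0.31%) passed an adjusted p of 0.05 in edgeR (Benjamini-Hochberg), 26 of them higher (0.237%) and 8 lower (0.0729%), and Mthfd2 ranked 7 both by p and by fold among those 26. In 25 genes (0.228%) the libraries of the treatments did not overlap, with TGFB1 above GFP in 21 (0.191%) and below it in 4 (0.0365%). Mthfd2 was picked from this contrast, so nothing is read from these shares. The gene lies on the minus strand of chr6:83305691-83325908 (GRCm38), and no exon of another annotated gene overlaps its exons.

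**Figure D1:**
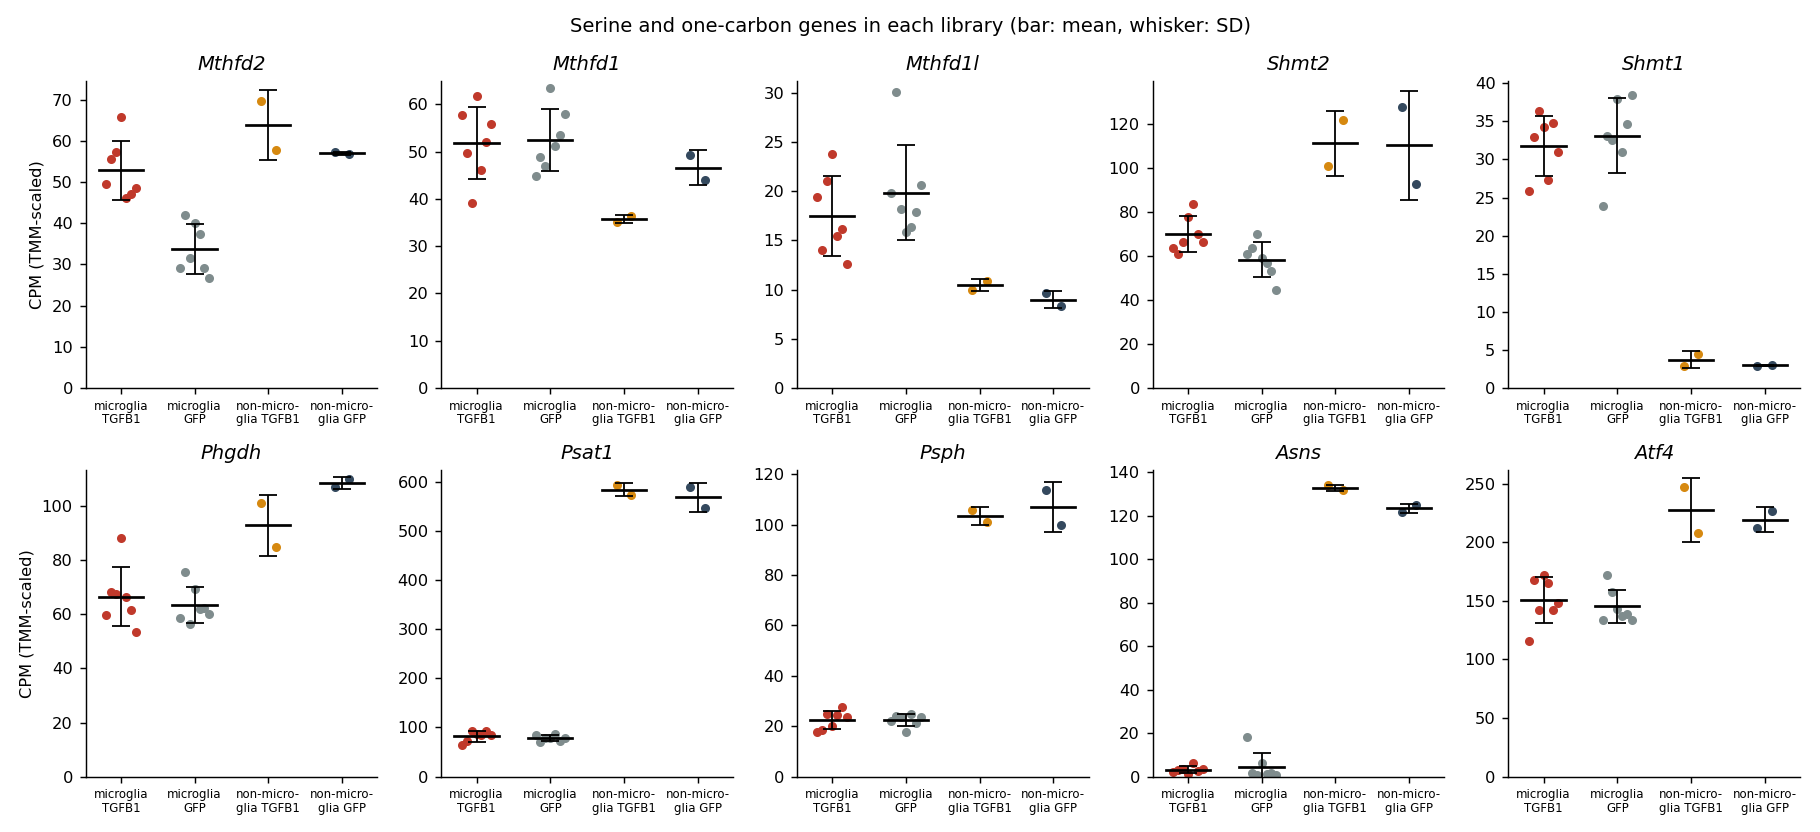
CPM of each of the 10 genes in every library (points), with the group mean (bar) and SD (whisker), for TGFB1 and GFP microglia and TGFB1 and GFP non-microglia. Mthfd2 is the panel in which all 7 TGFB1 microglia libraries lie above all 7 GFP microglia libraries; Psat1, Psph and Asns are low in all 14 microglia libraries and Shmt1 is low in all 4 non-microglia libraries.

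Of the other 8 members tested in microglia, 0 were called. Shmt2, the enzyme just before MTHFD2 in mitochondria, ranged over 61.0 to 84.01 CPM (median 66.4) in TGFB1 microglia and 44.4 to 69.9 CPM (median 59.2) in GFP microglia. The groups overlapped, although all 7 TGFB1 libraries lay above the GFP mean of 58.4 CPM, and the log2 fold change was 0.25 with a standard error of 0.10. In replicates 2 to 4 alone it was -0.05. Mthfd1l, which follows MTHFD2 in the mitochondrial route, had 12.6 to 23.8 CPM (median 16.2) in TGFB1 microglia and 15.9 to 30.1 CPM (median 18.2) in GFP microglia, with a log2 fold change of -0.19 (SE 0.17). Of the 3 mitochondrial enzyme genes, the 1 called was Mthfd2, which was picked from this contrast, so nothing is read from that count. In the cytosolic branch, Mthfd1 differed by -0.03 (SE 0.11) and Shmt1 by -0.06 (SE 0.12) on the log2 scale.

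The genes of serine synthesis differed little between the treatments in microglia. Phgdh, the first enzyme of the route, averaged 66.5 ± 10.9 CPM with TGFB1 and 63.5 ± 6.67 CPM with GFP (SD, n = 7 each), Psat1 82.1 ± 10.8 and 78.5 ± 5.77 CPM, and Psph, the last enzyme, 22.4 ± 3.69 and 22.4 ± 2.34 CPM. Their log2 fold changes were 0.06, 0.06 and -0.01, each smaller than its standard error of 0.10, 0.09 and 0.14. Atf4 averaged 150 ± 19.4 CPM with TGFB1 and 145 ± 14.4 CPM with GFP, a log2 fold change of 0.05 (SE 0.08). Asns fell short of the low-count filter in microglia, with 1.30 to 6.30 CPM (median 3.11) in TGFB1 and 0.793 to 18.04 CPM (median 1.84) in GFP libraries, and was not tested there.

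**Figure D2:**
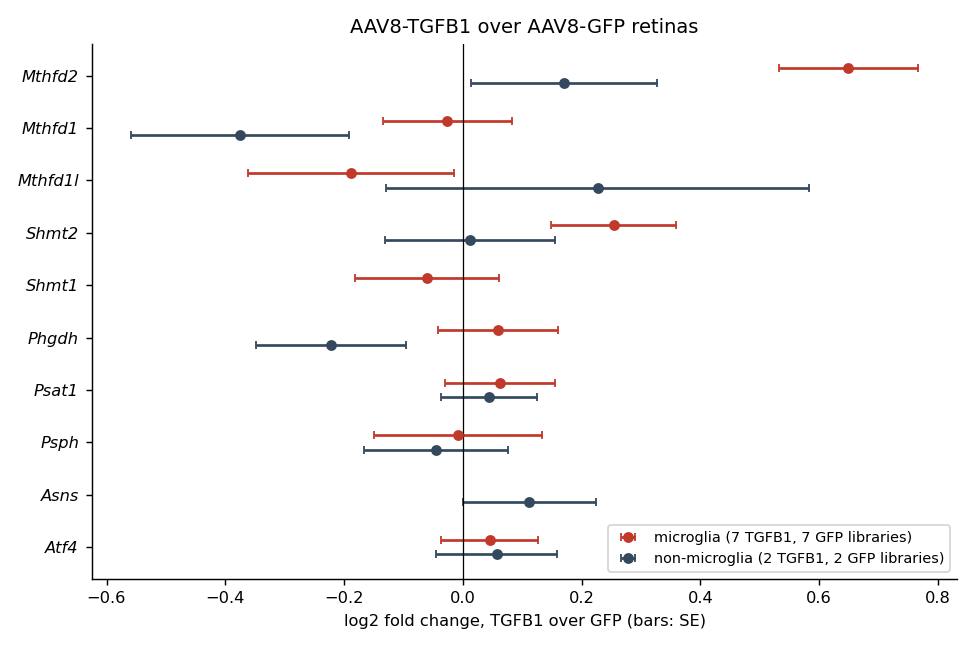
Log2 fold change of each gene in TGFB1 over GFP retinas, in microglia and in non-microglia, with standard errors; Asns has no microglia value and Shmt1 no non-microglia value because their counts were too low to test. Mthfd2 in microglia is the point farthest to the right, at 0.65, against 0.17 in non-microglia.

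In non-microglia the same treatments were tested in libraries that the choice of Mthfd2 did not use. The members as a list were still chosen with earlier results of these data known. Mthfd2 had 69.8 and 57.9 CPM in TGFB1 non-microglia and 57.3 and 56.7 CPM in GFP non-microglia. Both TGFB1 libraries lay above both GFP libraries, the lower of them narrowly. The libraries of the treatments did not overlap in 5 of the 9 members tested (Mthfd2, Mthfd1l and Asns above, Mthfd1 and Phgdh below), against 36.4% of all genes tested. The log2 fold change of Mthfd2, 0.17 (SE 0.16), was not called by edgeR (adjusted p = 0.915). None of the 9 members tested was called by edgeR, 0 had an unadjusted p under 0.05, and DESeq2 also called 0. Over all 13598 genes tested, 53 (0.39%) were called by edgeR, 46 higher (0.338%) and 7 lower (0.0515%). An unadjusted edgeR p under 0.05 was found for 1037 of these genes. Mthfd1 had 35.2 and 36.4 CPM with TGFB1 and 49.2 and 44.0 CPM with GFP, a log2 fold change of -0.38 (SE 0.18, edgeR adjusted p = 0.658). Phgdh had 101 and 84.97 CPM with TGFB1 and 107 and 110 CPM with GFP, and its log2 fold change of -0.22 was likewise not called (SE 0.13, edgeR adjusted p = 0.749). For Mthfd1l, Shmt2, Psat1, Psph, Asns and Atf4 the log2 fold changes lay between -0.05 and 0.23, with standard errors of 0.08 to 0.36. With 2 libraries a side the precision was low, lowest for Mthfd1l (SE 0.36). Levels of some cell type markers in non-microglia also differed between the treatments. Of 10 bipolar markers 7 were called higher with TGFB1 (summed means of 2335 CPM with TGFB1 and 1506 CPM with GFP), of 4 erythroid genes 3 were called lower, and 8 cone markers summed to 1040 CPM with TGFB1 and 1786 CPM with GFP with 0 called. Whether cell numbers differed cannot be told from these sums, and the part of such differences in the members' values was not tested.

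The TGFB1 effects of microglia and non-microglia were also set against each other in one fit of all 18 libraries. That difference was called for 2 of 15321 genes (0.0131%) and for 0 of the 10 members by edgeR, and DESeq2 called 0 members. An unadjusted edgeR p under 0.05 was found for 711 of the 15321 genes and for 1 member. That member was Mthfd2, whose effect was larger in microglia by 0.49 (SE 0.23) on the log2 scale. It was not called after adjustment, so a difference between the fractions was not detected. Part of this value comes from the libraries that selected the gene. For the other 9 members the difference lay between -0.44 (Asns) and 0.36 (Mthfd1), and that of Asns was 0.44 without GFP microglia replicate 2.

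Microglia and non-microglia differed far more than the treatments did. In TGFB1 retinas 65.2% of all 15321 genes were called between the fractions by edgeR (30.8% higher and 34.4% lower in microglia), and in GFP retinas 64.2% (29.9% higher and 34.2% lower). Among the 9 members other than Mthfd2, 3 were higher and 6 lower in TGFB1 microglia, and 2 were higher and 6 lower in GFP microglia. With most genes of the table called, nothing particular is read from these counts, and the size of each difference is given instead. Scaling by RLE size factors in place of TMM moved the median of all genes to -0.169 in place of -0.044 in TGFB1 retinas and to -0.175 in place of -0.06 in GFP retinas. It called 4245 genes higher and 5747 lower in place of 4723 and 5264 in TGFB1 retinas, and 4173 and 5689 in place of 4585 and 5245 in GFP retinas. No member changed direction under that scaling.

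Shmt1 was the member most enriched in microglia. It had 25.9 to 36.3 CPM (median 33.0) in TGFB1 microglia against 2.91 and 4.51 CPM in TGFB1 non-microglia, and 23.9 to 38.5 CPM (median 33.1) in GFP microglia against 2.91 and 3.002 CPM in GFP non-microglia. The lowest microglia library lay several times above the highest non-microglia library. The log2 fold changes were 3.09 with TGFB1 (SE 0.26) and 3.47 with GFP (SE 0.27), or 8.50-fold and 11.05-fold. Shmt1 did not pass the low-count filter in non-microglia alone, so these values are a description. Shmt2, its mitochondrial partner, went the other way: 69.9 ± 8.22 CPM in TGFB1 microglia (SD, n = 7) against 101 and 122 CPM in TGFB1 non-microglia, and 58.4 ± 8.08 CPM in GFP microglia (n = 7) against 128 and 93.05 CPM in GFP non-microglia. Its log2 fold changes were -0.68 with TGFB1 and -0.93 with GFP (edgeR adjusted p = 0.000224 and 3.89e-06).

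Psat1, Psph and Asns were far lower in microglia. Psat1 had 63.6 to 92.9 CPM (median 84.7) in TGFB1 microglia and 593 and 574 CPM in TGFB1 non-microglia. In GFP retinas it had 70.2 to 85.8 CPM (median 78.6) in microglia and 589 and 547 CPM in non-microglia, and no microglia library approached a non-microglia library. The log2 fold change was -2.83 with TGFB1 and -2.86 with GFP (SE 0.10 each, edgeR adjusted p = 8.31e-18 and 6.75e-18), so the microglia level was 14.1% and 13.8% of the non-microglia level. Psph was at 21.7% with TGFB1 and 20.9% with GFP, with 17.8 to 27.8 CPM in TGFB1 microglia and 17.8 to 24.7 CPM in GFP microglia against 101 to 106 and 100 to 114 CPM in the non-microglia of each treatment. Its log2 fold changes were -2.21 and -2.26 (SE 0.14 each, edgeR adjusted p = 7.04e-13 and 3.74e-13). Psph shares 10.4% of its exon length with Cct6a on the annotation, and a stretch of 452 bases is identical to it, so its counts may include reads of that gene.

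Asns was near 0 in most microglia libraries. It had 1.30 to 6.30 CPM in TGFB1 microglia against 134 and 132 CPM in TGFB1 non-microglia, and 0.793 to 18.04 CPM in GFP microglia against 122 and 125 CPM in GFP non-microglia. The highest GFP microglia value came from replicate 2, and the next was 6.26 CPM. The microglia level was 2.41% of the non-microglia level with TGFB1 and 3.60% with GFP (log2 fold change -5.41, SE 0.50, and -4.96, SE 0.48). Asns did not pass the low-count filter in microglia alone, so these values are a description. Without GFP microglia replicate 2 the log2 fold change in GFP retinas was -5.84. Markers of other cell types were at shares that varied by list: the 11 Mueller glia markers summed to 3.06% of their non-microglia level in TGFB1 microglia and 3.75% in GFP microglia, astrocyte markers to 1.77% and 4.11%, bipolar markers to 2.11% and 4.82%, and rod markers to 2.45% and 1.53%. The summed shares were higher for amacrine markers, at 6.28% and 8.97%, cone markers, at 26.6% and 17.0%, and pigment epithelium markers, at 29.2% and 26.6%. In each treatment, however, 6 of 8 cone markers and 4 of 5 pigment epithelium markers tested were called lower in microglia. In each of these 2 lists 1 marker was called higher, so the summed share does not describe the list as a whole. Ganglion cell markers summed higher in microglia than in non-microglia, at 158% and 260.3%, where the non-microglia sums were small (21.8 and 18.6 CPM). Of the 8 listed, 4 were tested, and 2 with TGFB1 and 3 with GFP were called higher in microglia. This sum does not describe its list as a whole either. Of the 11 Mueller glia markers, 11 had more than 1.0 CPM on average in TGFB1 microglia and 11 in GFP microglia, and none was at 0. The part of RNA from other cells in the low Asns level was not tested.

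**Figure D3:**
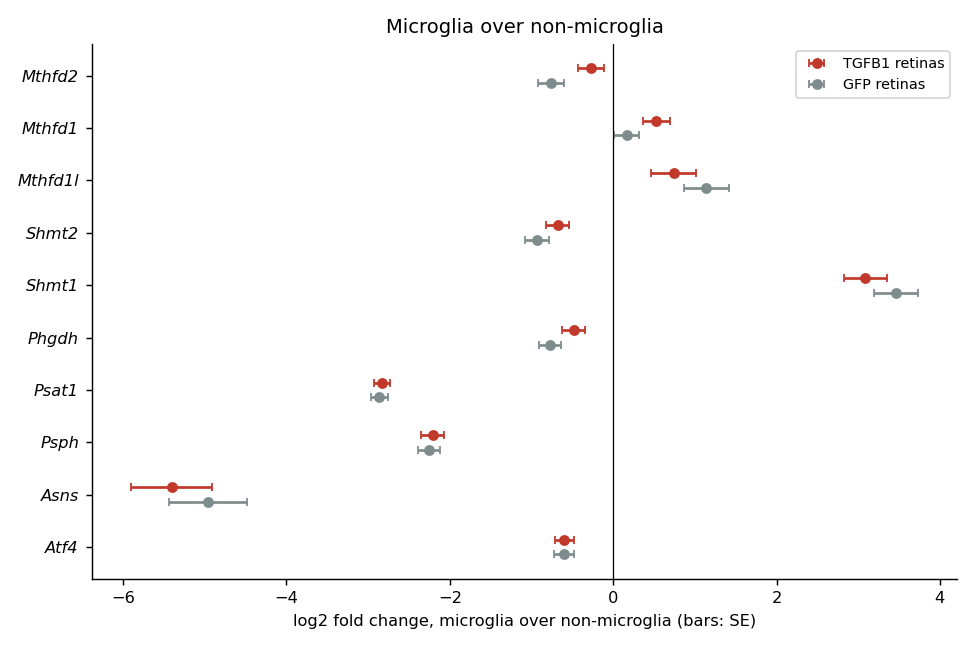
Log2 fold change of each gene in microglia over non-microglia, in TGFB1 and GFP retinas, with standard errors. Shmt1 lies at 3.09 and 3.47, Mthfd1l above 0, and Psat1, Psph and Asns between -5.41 and -2.21, in both treatments.

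Within microglia, the libraries highest in Asns were also those highest in Mueller glia markers other than Apoe, while other marker lists were less uniform. The 3 libraries with the highest summed Mueller markers other than Apoe were replicate 6 of TGFB1 (879 CPM) and replicates 2 and 5 of GFP (1039 and 1047 CPM). They were also the 3 with the highest Asns, at 6.30 CPM in TGFB1 replicate 6, 18.04 CPM in GFP replicate 2 and 6.26 CPM in GFP replicate 5. The other 11 microglia libraries had 315 to 597 CPM of the markers and 0.793 to 3.63 CPM of Asns. GFP replicate 2, with an Asns level well above that of GFP replicate 5 at a like Mueller sum, was also highest in bipolar (258 CPM), amacrine (84.95 CPM), endothelial and pericyte (137 CPM) and erythroid (20.9 CPM) lists. In GFP replicate 5 these lists summed to 61.1, 31.8, 44.3 and 2.41 CPM, and in TGFB1 replicate 6 to 145, 60.9, 88.2 and 2.10 CPM. GFP replicate 5 thus lay below GFP replicate 4 in bipolar (77.6 CPM), GFP replicate 7 in amacrine (32.4 CPM) and GFP replicate 3 in endothelial and pericyte markers (52.9 CPM). Cone markers were highest in GFP replicate 6 (398 CPM), where Asns was at 1.37 CPM. Astrocyte markers were highest in GFP replicate 5 (74.6 CPM), then in GFP replicate 7 (49.9 CPM), where Asns was at 1.86 CPM. The astrocyte list summed to 36.4 CPM in TGFB1 replicate 6 and 26.2 CPM in GFP replicate 2. The part of these cells' RNA in the Asns level was not tested. Over the groups the Mueller glia markers summed to 480 ± 187 CPM in TGFB1 microglia and 653 ± 273 CPM in GFP microglia (SD, n = 7 each).

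**Figure D4:**
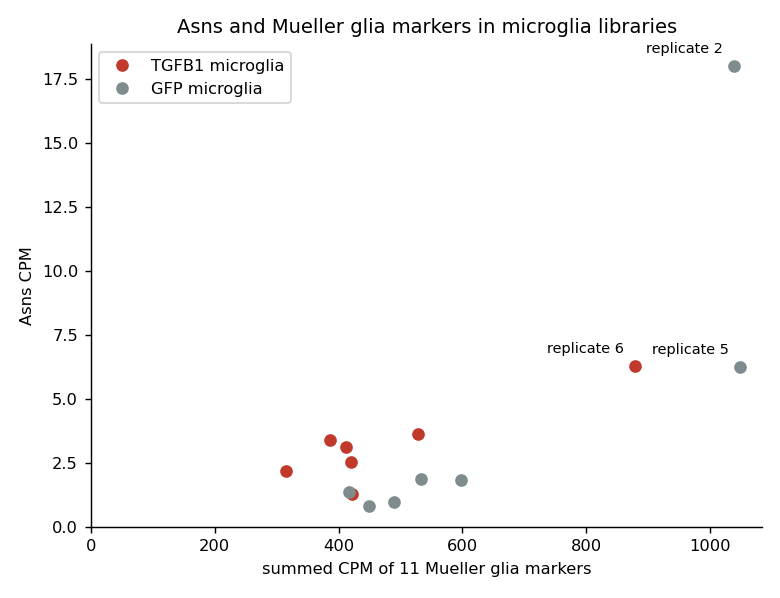
Asns CPM against the summed CPM of 11 Mueller glia markers in each microglia library, TGFB1 and GFP. The 3 libraries that reach 879 to 1047 CPM of the markers carry 6.26 to 18.04 CPM of Asns, and the remaining 11 libraries carry at most 3.63 CPM.

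The remaining members differed less between the fractions. Mthfd1l was higher in microglia, at 17.5 ± 4.04 CPM (SD, n = 7) against 10.01 and 10.9 CPM in TGFB1 retinas and 19.8 ± 4.83 CPM (n = 7) against 9.60 and 8.34 CPM in GFP retinas. Its log2 fold changes were 0.74 (SE 0.28, edgeR adjusted p = 0.0219) and 1.14 (SE 0.28, edgeR adjusted p = 0.00102); the call in TGFB1 retinas was lost with DESeq2, RLE size factors, no low-count filter, or without either TGFB1 non-microglia library, where the edgeR or DESeq2 adjusted p ranged over 0.0526 to 0.123. Mthfd1 was higher in microglia of TGFB1 retinas (0.53, SE 0.16, edgeR adjusted p = 0.00632, and 0.0524 without TGFB1 non-microglia replicate 1), while in GFP retinas its log2 fold change of 0.17 was not called (SE 0.16, edgeR adjusted p = 0.360). Phgdh was lower in microglia of TGFB1 retinas (-0.48, SE 0.14, edgeR adjusted p = 0.00396, and 0.141 without TGFB1 non-microglia replicate 1) and of GFP retinas (-0.78, SE 0.14, edgeR adjusted p = 2.24e-05). Because 19 other annotated genes carry stretches at least 90% identical to Phgdh over 200 bases or more, its counts are uncertain; the 18 of them that are in the count table together held 90 counts, against 3304 for Phgdh.

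Atf4 was lower in microglia. It had 116 to 172 CPM (median 148) in TGFB1 microglia against 247 and 208 CPM in TGFB1 non-microglia, and 134 to 172 CPM (median 139) in GFP microglia against 212 and 227 CPM in GFP non-microglia. No microglia library reached a non-microglia library, and the log2 fold change was -0.60 with either treatment (SE 0.12 each, edgeR adjusted p = 0.000110 with TGFB1 and 0.000111 with GFP). The Mthfd2 level in microglia was 82.7% of that in non-microglia with TGFB1 and 59.0% with GFP, log2 fold changes of -0.27 and -0.76 (SE 0.16 each), given as a description because these libraries chose the gene.

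Per kilobase of exon, the order of the members was similar in both microglia groups and differed from that of non-microglia. In TGFB1 microglia the means per kilobase were 63.8 CPM for Atf4, 26.7 for Phgdh, 22.5 for Shmt2, 19.3 for Psat1, 15.2 for Mthfd2, 11.7 for Mthfd1, 8.19 for Shmt1, 5.18 for Psph, 3.94 for Mthfd1l and 1.17 for Asns. In GFP microglia Mthfd2 (9.65 CPM per kilobase) stood below Mthfd1 (11.8) and above Shmt1 (8.52), with SDs of 1.73, 1.47 and 1.27, so these neighbours lay within or near their spread. In GFP non-microglia Psat1 led with 134 CPM per kilobase, followed by Atf4 with 93.2, Asns with 45.1, Phgdh with 43.8 and Shmt2 with 35.6, while Shmt1 came last with 0.761. Asns and Phgdh lay close together there, with SDs of 0.901 and 0.871 CPM per kilobase (n = 2 each).

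The letters of the promoters were read for the gene that was lowest in microglia and for the gene that differed with TGFB1. RefSeq promoter windows on GRCm38.p6 were held for all 10 members (11 windows), each with 250 bases before and 50 after the start. Both lie on the minus strand of chromosome 6, at chr6:7693160-7693459 for Asns and chr6:83317555-83317854 for Mthfd2, printed 5′ to 3′ with the letters of the C/EBP-ATF response element in capitals.
Asns: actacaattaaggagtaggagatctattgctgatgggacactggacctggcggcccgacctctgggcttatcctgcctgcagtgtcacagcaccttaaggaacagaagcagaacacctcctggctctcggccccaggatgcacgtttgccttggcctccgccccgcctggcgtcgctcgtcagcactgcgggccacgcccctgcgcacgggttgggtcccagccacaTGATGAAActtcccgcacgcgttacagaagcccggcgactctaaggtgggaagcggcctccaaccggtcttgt
Mthfd2: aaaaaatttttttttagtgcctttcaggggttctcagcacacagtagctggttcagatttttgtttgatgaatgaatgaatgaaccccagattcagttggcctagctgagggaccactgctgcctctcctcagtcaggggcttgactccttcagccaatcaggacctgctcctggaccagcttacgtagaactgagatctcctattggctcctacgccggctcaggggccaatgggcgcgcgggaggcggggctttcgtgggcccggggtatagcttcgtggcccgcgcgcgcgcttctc
The element was searched as TGATGNAA on both strands, and it is the kind of sequence that ATF4 is known to bind with a C/EBP partner. It was found in 3.97% of 32851 promoters and, among the members, in Asns, where it starts 23 bases before the start; the other member windows do not hold these letters. The E-box CACGTG (7.15% of promoters), the palindromic SMAD element GTCTAGAC (0.213%) and the AP-1 element TGANTCA (7.81%) were in none of the 11 member windows. The Mthfd2 window lies inside the annotated gene span given above, not at its upstream end. Sequence at that end was not searched.

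Neighbouring pathways, 123 genes in 10 lists, were then followed in the same fits. In microglia 0 of the 97 tested were called between the treatments by edgeR (11 had an unadjusted p under 0.05 and DESeq2 called 0), and in non-microglia 0 of 104 (7 and 0). Over all genes the shares called were 0.31% and 0.39%, so counts of 0 in lists of this size are at the background. An unadjusted edgeR p under 0.05 was found for 730 of all 10970 genes in microglia and 1037 of all 13598 in non-microglia. Nothing is read from the counts of 11 and 7. The 12 aminoacyl-tRNA synthetases, which charge tRNAs with amino acids and are targets of ATF4, had 12 positive values in microglia with a median log2 fold change of 0.10, against 0.003 over all genes. The list was mostly positive in non-microglia too, with 9 of 12 and a median of 0.07. In microglia Cars, which charges cysteine, was at 0.29 (SE 0.09), Eprs at 0.19 (SE 0.07) and Nars at 0.15 (SE 0.07), and these were not called. Other ATF4 targets gave 6 positive values of 17, with a median of -0.02; Slc7a11, the cystine transporter, was at 0.96 (SE 0.35) with 6.19 ± 2.16 CPM with TGFB1 and 3.21 ± 1.63 CPM with GFP, and the stress factor Atf3 at 0.57 (SE 0.19), called in the fit without a low-count filter (edgeR adjusted p = 0.00202) and in no other alternative fit.

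Folate cycle genes gave 7 positive values of 14 in microglia, with a median of 0.01. Tyms, thymidylate synthase, had a log2 fold change of 0.32 (SE 0.15), Mtfmt, which formylates the initiator methionyl-tRNA of mitochondria, -0.38 (SE 0.22), and the folate transporter Slc46a1 0.13 (SE 0.08). Mki67 and Rrm2, marker and enzyme of dividing cells, were at 0.35 (SE 0.16) and 0.52 (SE 0.25), and 9 of the 12 cell cycle genes were positive with a median of 0.08. Of purine synthesis genes 3 of 8 were positive with a median of -0.03. Ahcy of the methionine cycle, at 3.01 ± 0.917 CPM with TGFB1 and 5.66 ± 1.31 CPM with GFP, had the lowest value of these lists, -0.92 (SE 0.28), and was not called.

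**Figure D5:**
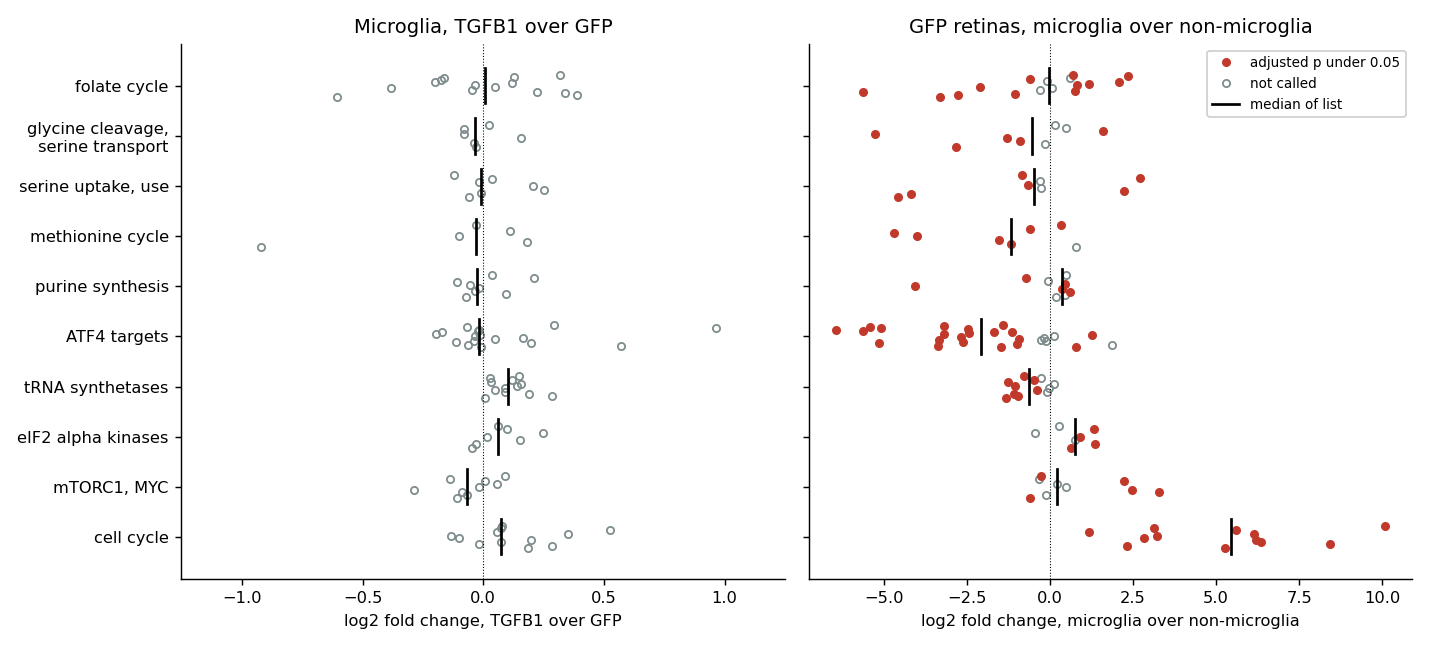
Log2 fold change of each gene of 10 pathway lists in microglia with TGFB1 over GFP (left) and in microglia over non-microglia of GFP retinas (right), with filled points for genes called at an adjusted p under 0.05 and a line at the median of the list. No point is filled on the left. On the right, 19 of 26 ATF4 targets are filled below 0 and 12 of 12 cell cycle genes above 0. Some genes of both lists did not pass the low-count filter in the fraction where they are lower.

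Between the fractions, 39 pathway genes were higher and 48 lower of 114 in TGFB1 retinas, and 34 and 50 in GFP retinas, against the shares over all genes given above. ATF4 targets were lower in microglia, 20 of 26 with TGFB1 and 19 of 26 with GFP, with medians of -2.13 and -2.06. Of the 27 listed, 17 passed the low-count filter in microglia alone and 25 in non-microglia alone. Those short of it in microglia were likely to come out lower, so nothing is read from this count. Slc7a11 was at -4.63 (SE 0.22) with TGFB1 and -5.63 (SE 0.24) with GFP. Of the tRNA synthetases 8 of 12 were lower in each treatment, such as Eprs at -0.96 and -1.09. Cell cycle genes were higher, 12 of 12 in each treatment, with medians of 5.52 and 5.44. All 12 passed the filter in microglia alone but 5 in non-microglia alone, so this count has the same limit. Mki67 had 32.8 ± 8.26 CPM in TGFB1 microglia and 25.6 ± 5.34 CPM in GFP microglia against means of 0 CPM in TGFB1 and 0.291 CPM in GFP non-microglia. Within the folate cycle the transporter Slc46a1 was at 2.13 and 2.34 (SE 0.15 each), 135 ± 12.1 CPM in TGFB1 microglia and 123 ± 14.5 CPM in GFP microglia, and Sfxn1, a mitochondrial serine carrier, was at 1.15 and 1.61. As counts of called genes, 7 folate genes were higher and 3 lower of 16 with TGFB1, and 6 and 6 with GFP.

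Genes whose levels followed Mthfd2 within the treatments were found from the deviations of log2 CPM from the treatment mean over the 14 microglia libraries, among 9014 genes with a mean of at least 10 CPM. The 5 highest were Surf4 (Pearson r = 0.89), Fcgr1 (0.88), Atp6v1e1 (0.88), P2ry12 (0.86) and Map1lc3b (0.86). These 5 had log2 fold changes of -0.01, -0.11, 0.05, 0.10 and -0.04 with TGFB1 and were not called, unlike Mthfd2. Among the members Phgdh followed Mthfd2 most closely (0.75), then Atf4 (0.47), Mthfd1l (0.39) and Shmt2 (0.31), and Psph least (-0.30). The 5 genes were picked as the highest among 9014, and with 14 libraries such a choice alone can give high r. Libraries also share depth and composition, so all these r are a description of 14 libraries.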

How the data were processed

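RNA of microglia and non-microglia sorted from retinas with antibodies was sequenced as polyA Smart-Seq2 libraries, per the labels' protocols. The authors deposited raw read counts per Ensembl gene for 18 libraries, with no normalization. Per the submitters' processing notes, STAR, featureCounts and DESeq2 were used with GRCm38.p6; for versions, strand setting and annotation release, nothing is given in the sources used here. Of 54532 gene identifiers, 54495 were matched to GENCODE M21 (GRCm38) and 37 were not.

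Genes were tested with edgeR 4.0.16 in R 4.3.3 (quasi-likelihood F test, TMM factors, filterByExpr, robust dispersion), and a call needed an adjusted p under 0.05 (Benjamini-Hochberg, over all genes tested). TGFB1 was compared with GFP within each fraction; fractions, and the difference of the TGFB1 effects, were compared in a joint model of the 18 libraries in 4 groups. The standard error is the size of the log2 fold change divided by the square root of F. Levels are CPM, counts per 1000000 on TMM library sizes of all 18 libraries, and per kilobase of exon where genes are compared. Overlaps and similar transcripts were found with bedtools 2.31.1 and blastn 2.17.0. The fits of microglia, of non-microglia and of all 18 libraries were first run on simulated data. For the joint fit only the fraction contrast in GFP retinas was simulated, not that in TGFB1 retinas or the difference of effects. Few genes were changed in that simulation, while most were called between the real fractions, so it does not check that setting.

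The members and gene lists were chosen with earlier results of these data known. Named besides the 10 members are the pathway genes called with TGFB1, otherwise up to 3 per list with the smallest p in microglia, and the 5 genes most like Mthfd2. Alternatives were DESeq2 1.42.0, RLE size factors, no low-count filter, no robust dispersion, a replicate block, covariates, the joint fit and leaving out each library. Reads were not tagged by molecule, so the floor of 3 counts covers counting error only.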

Additional observations from a re-analysis of the deposited data

Results flagged for a closer look

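Of 20 groups of 7 libraries, each member in TGFB1 and in GFP microglia, 2 held a library far from the other 6 of its group by Dixon's test, and chance alone gives about 1 in 20. Mthfd1l reached 30.1 CPM in GFP microglia replicate 3, against 15.9 to 20.6 CPM in the other 6 GFP libraries. Asns reached 18.04 CPM in GFP microglia replicate 2, against 0.793 to 6.26 CPM in the other 6 GFP libraries.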

How the results depend on the processing

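The Mthfd2 call in microglia was kept in 14 of 14 fits that left out 1 library (log2 fold change 0.59 to 0.71) and in 12 of 14 other alternatives. It was lost in replicates 2 to 4 alone (0.63) and in replicates 5 to 8 alone (0.66), where the number of members called went to 0 in each; both settings hold fewer libraries and were chosen after seeing the data, as were a covariate for these parts, a Mueller glia covariate without Apoe and leaving out the 3 libraries highest in those markers. Over all genes, the 34 calls in microglia became 52 with DESeq2, 14 with the Mueller glia covariate without Apoe, 56 with a covariate for Xist counts, 15 in the fit of all 18 libraries, 64 with no low-count filter, 60 with the replicate block, and 4 and 4 in replicates 2 to 4 and 5 to 8 alone. Leaving out 1 library gave 16 to 34 calls, 19 when GFP 3 was dropped, 21 for TGFB1 7 and 16 for TGFB1 8. In non-microglia the 53 calls became 4 in the fit of all 18 libraries, 102 with no low-count filter and 109 with the replicate block, and 28 to 110 without 1 library (110 without GFP 1 or GFP 2, 28 without TGFB1 1), with 0 members in each. For the difference of effects, 2 calls became 12 with no low-count filter, 1 with no robust dispersion and 1 to 2 without 1 library, members at 0. The labels do not say that a replicate number marks a shared source, and the libraries were not taken as paired: in microglia, same-numbered deviations from the group means correlated at -0.124 to 0.217, over 0.1 in 5 of 7 pairs, with libraries closest to their own number in 2 of 7, and in non-microglia at -0.0704. A partial pairing in microglia was therefore not settled. The replicate block changed no member's call.

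Directions that turned all belong to values that were not called, and the cause was not tested. In microglia, replicates 2 to 4 alone gave log2 fold changes of 0.0283 for Mthfd1, 0.0709 for Shmt1, -0.0461 for Shmt2, -0.0428 for Psat1, -0.14 for Atf4, -0.0788 for Rrm2, -0.11 for Ccna2, -0.0013 for Eif2b5 and 0.0396 for Tsc1. Replicates 5 to 8 alone gave 0.13 for Psph, 0.0087 for Paics, -0.0487 for Eif2ak3, -0.0082 for Gcsh and 0.0317 for Sfxn1. Without the 3 libraries highest in Mueller markers Mthfd1 was at 0.0178 and Adsl at 0.0279, and with the Mueller covariate without Apoe Mat2a was at -0.0029. Without 1 library, microglia values ranged over -0.0703 to 0.0373 for Mthfd1, -0.0173 to 0.11 for Phgdh and -0.0711 to 0.0374 for Psph, and non-microglia values over -0.19 to 0.26 for Shmt2, -0.0008 to 0.0914 for Psat1, -0.13 to 0.0431 for Psph and -0.0742 to 0.18 for Atf4. The difference of effects ranged over -0.0117 to 0.47 for Shmt2, -0.0348 to 0.0924 for Psat1, -0.0604 to 0.14 for Psph, -0.65 to 0.44 for Asns and -0.12 to 0.13 for Atf4, which was -0.0087 with DESeq2, -0.0078 with RLE size factors and -0.0074 with no low-count filter. Between the fractions, DESeq2 and RLE size factors called Mthfd2 lower in TGFB1 microglia (-0.39 in each). Depth limits Asns in microglia (2 to 31 reads) and Shmt1 in non-microglia (9 to 14 reads).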
